A study of Mus musculus with 54 samples.

Results

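The unnamed loci described here are stretches of the mouse genome that the authors' transcript assembly listed as expressed under a running number (XLOC) and without a gene name. Members were chosen by a measured value, a mean of at least 2 FPKM (fragments per kilobase of transcript, scaled to the mapped fragments of the library) over all 8 libraries of retinoic acid (RA)-treated cells. 880 of the 11592 unnamed loci passed, out of 38363 entries in the table, and 11689 named entries reached the same level. The level is thus the criterion of choice and is given below as a description only.

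The cells were 46C mouse embryonic stem (ES) cells of strain 129/Ola, a line with GFP knocked into Sox1, grown in N2B27 medium with LIF and 2 kinase inhibitors and then given 2 µM RA. Wild-type (WT) cells and cells with a 58 kb deletion (KO) that removes the long noncoding RNA gene Haunt (listed as Gm15055), beside the HOXA cluster, were sampled at days 2 and 4. Each genotype and day had 2 libraries, named WT-1 and WT-2 or KO-i and KO-j. The labels do not state whether the libraries of a group stem from separate cultures, or whether KO-i and KO-j are separate clones, so p-values measure the spread between these libraries, which may be technical. Libraries were made from poly(A)-selected RNA without a strand mark. In what follows, 4 pairs of values are always given in the order WT day 2, KO day 2, WT day 4 and KO day 4.

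Transcript assembly joins aligned reads into loci whether or not a gene is annotated there. Loci found in this way commonly include long noncoding RNAs, transcripts antisense to genes, divergent transcripts that start beside a gene and run away from it, unannotated ends of known genes, and copies of repeated sequence. RA, the ligand of the nuclear RA receptors, drives ES cells out of pluripotency. Among the genes it induces are Hox genes and enzymes of its own metabolism such as Cyp26a1, which degrades RA, and Dhrs3, which reduces retinaldehyde to retinol.

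Sequence is printed for 3 genes of RA biology that started back to back with a member. The pairs, described below, are XLOC_006022 with Nr2f1, XLOC_017344 with Dhrs3 and XLOC_011876 with Cyp26a1. The 250 bases before the first start of each gene that RefSeq lists in build GRCm38.p6 are printed 5′ to 3′ in the gene's direction. The loci themselves are placed on build mm9, so no position was carried from one build to the other. Capitals mark a half-site sequence of nuclear receptors, AGTTCA when read on the other strand. The window of Nr2f1 lies on chr13:78198874-78199123 (minus strand), that of Dhrs3 on chr4:144892577-144892826 (plus strand) and that of Cyp26a1 on chr19:37697558-37697807 (plus strand).
Nr2f1: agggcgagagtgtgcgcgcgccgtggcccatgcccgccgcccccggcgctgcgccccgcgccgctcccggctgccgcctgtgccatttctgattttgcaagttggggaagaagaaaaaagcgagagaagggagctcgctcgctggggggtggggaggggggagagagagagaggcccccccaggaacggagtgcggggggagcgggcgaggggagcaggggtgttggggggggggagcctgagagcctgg
Dhrs3: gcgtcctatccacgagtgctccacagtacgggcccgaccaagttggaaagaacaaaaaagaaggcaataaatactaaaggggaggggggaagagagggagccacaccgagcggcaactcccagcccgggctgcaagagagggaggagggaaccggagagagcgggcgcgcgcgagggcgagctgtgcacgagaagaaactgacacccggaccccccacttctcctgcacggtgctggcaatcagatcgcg
Cyp26a1: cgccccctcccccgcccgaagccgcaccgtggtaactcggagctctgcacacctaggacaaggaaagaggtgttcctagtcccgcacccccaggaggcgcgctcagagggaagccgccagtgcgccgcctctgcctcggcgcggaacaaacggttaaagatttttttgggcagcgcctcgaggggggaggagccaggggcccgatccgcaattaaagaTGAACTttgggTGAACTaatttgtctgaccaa
The Cyp26a1 window held AGTTCA at 2 places on the other strand, which together form a direct repeat with a spacer of 5 bases (DR5). The search covered the half-sites AGGTCA and AGTTCA, and any repeat of them in 1 direction with that spacer, on both strands, and a match is a match of letters only. Of 32851 RefSeq windows of this length, 14.0% held AGGTCA, 11.8% held AGTTCA and 0.0883% (29) held the repeat. The windows of Nr2f1 and Dhrs3 held none of these sequences. The gaps between member and gene on mm9 were 270 bp at Nr2f1, 484 bp at Dhrs3 and 251 bp at Cyp26a1. A window of 250 bases is shorter than each of these gaps. RefSeq lists 2 starts for Nr2f1 and 3 for Dhrs3, of which 1 window each is printed.

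Members ranged from 2.01 to 4461 FPKM in their mean, with a median of 6.09 and quartiles of 3.34 and 13.1. Of the 880, 288 reached 10 FPKM, 23 reached 100 and 5 reached 1000. The spans ran from 251 bp to 1353851 bp (XLOC_000027, over Cpa6 on chromosome 1), with a median of 3719 bp. Just inside the threshold were XLOC_008563 (2.01 FPKM) and XLOC_015033 (2.01 FPKM), and just outside it XLOC_021567 (1.996 FPKM) and XLOC_021633 (1.9995 FPKM). 824 members were above 0 in all 8 libraries, and 6 were listed at 0 in 4 or more.

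Together the members held a larger share of summed FPKM in WT cells at day 2 than in any other group. The share was 6.61% and 6.48% in WT at day 2, 4.80% and 4.89% in KO at day 2, 3.80% and 3.76% in WT at day 4, and 4.15% and 4.81% in KO at day 4. The locus XLOC_010406 alone made up 1.85% and 2.14% in WT at day 2 and between 0.351% and 0.702% in the other 6 libraries. Without the 5 highest members the share lay between 2.50% and 2.91% in every library. The median member stood at 5.36 to 6.75 FPKM in each library.

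The highest member, XLOC_010406 (chromosome 17, 39979940 to 39984198, minus strand, mm9), lay opposite Rn45s, the entry of the precursor of ribosomal RNA. Its FPKM were 9957 and 11599, 2226 and 3653, 1752 and 2663, and 1662 and 2180. Both WT libraries of day 2 were above all 6 others. Rn45s itself, at 202 and 211, 65.3 and 82.6, 42.4 and 63.8, and 48.9 and 55.3 FPKM, was likewise highest in both WT libraries of day 2 (Pearson r = 0.99 over the 8 libraries of log2 values). In WT cells XLOC_010406 fell by 2.31 log2 units from day 2 to day 4 (SE 0.282, limma adjusted p = 0.00191), while in KO cells the difference was -0.58 (adjusted p = 0.19), with -0.94 without KO-i at day 2 (adjusted p = 0.0812) and -0.23 without KO-j at day 2 (adjusted p = 0.664). The overlapping locus XLOC_009875 lies on the plus strand (39982807 to 40201828). On that strand it overlaps Gm21946, Rn45s and the entry RP23-81C12.1, which had means of 0, 96.4 and 348 FPKM. XLOC_009875 read 1801 and 1781, 871 and 1086, 761 and 765, and 1030 and 1579 FPKM. It fell in WT (-1.23, SE 0.197, adjusted p = 0.00518) and was not called in KO (+0.39, adjusted p = 0.206). In KO it passed upward under quantile normalization (+0.68, adjusted p = 0.0372) and without KO-i at day 4 (+0.70, adjusted p = 0.0398).

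Several other high members, on other chromosomes, were lowest in WT at day 4. XLOC_014354 (chromosome 3, over 284 kb from the nearest named gene, Pex2) read 3183 and 2670, 2129 and 2527, 1440 and 1682, and 2341 and 3202 FPKM. XLOC_019037 (chromosome 6) read 425 and 393, 200 and 265, 181 and 187, and 264 and 390 FPKM, and XLOC_008036 (chromosome 15) read 621 and 514, 403 and 475, 374 and 329, and 476 and 693 FPKM. All 3 fell in WT (-0.90, adjusted p = 0.0112; -1.14, adjusted p = 0.00652; -0.69, adjusted p = 0.0357) and none passed in KO (+0.24, +0.48 and +0.39, adjusted p = 0.389, 0.131 and 0.192). The WT call of XLOC_014354 was lost without WT-1 at day 2 (-0.78, adjusted p = 0.0742) or at day 4 (-0.79, adjusted p = 0.07), and with no filter (-0.90, adjusted p = 0.0531). It was -0.55 under quantile normalization (adjusted p = 0.0197), where its KO difference passed (+0.57, adjusted p = 0.026). For none of them was the difference between genotypes in the change over days called, as given below.

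XLOC_005478 (chromosome 12, 82046541 to 82048581, minus strand), opposite the splicing factor gene Srsf5, had the narrowest range among the 12 highest members. It read 418 and 449, 459 and 422, 437 and 437, and 489 and 453 FPKM, a ratio of highest to lowest of 1.17. XLOC_006011 (chromosome 13) fell at day 4 in both genotypes (-0.54, adjusted p = 0.0136, in WT and -0.67, adjusted p = 0.0112, in KO), from 533 to 635 FPKM at day 2 to 334 to 470 FPKM at day 4. Also among the 12 highest were XLOC_008971 (opposite Cmss1, 829 to 1812 FPKM), XLOC_025190 (X chromosome, 279 to 643), XLOC_022824 (opposite Gm9731, 250 to 360) and XLOC_013675 (chromosome 2, 129 to 404). XLOC_008971 also lies within Filip1l on the same strand, which had a mean of 1.78 FPKM. XLOC_022824 also overlaps the end of Eif4ebp1 on the opposite strand. Eif4ebp1 had a mean of 172 FPKM and Gm9731 of 0.0800.

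**Figure D1:**
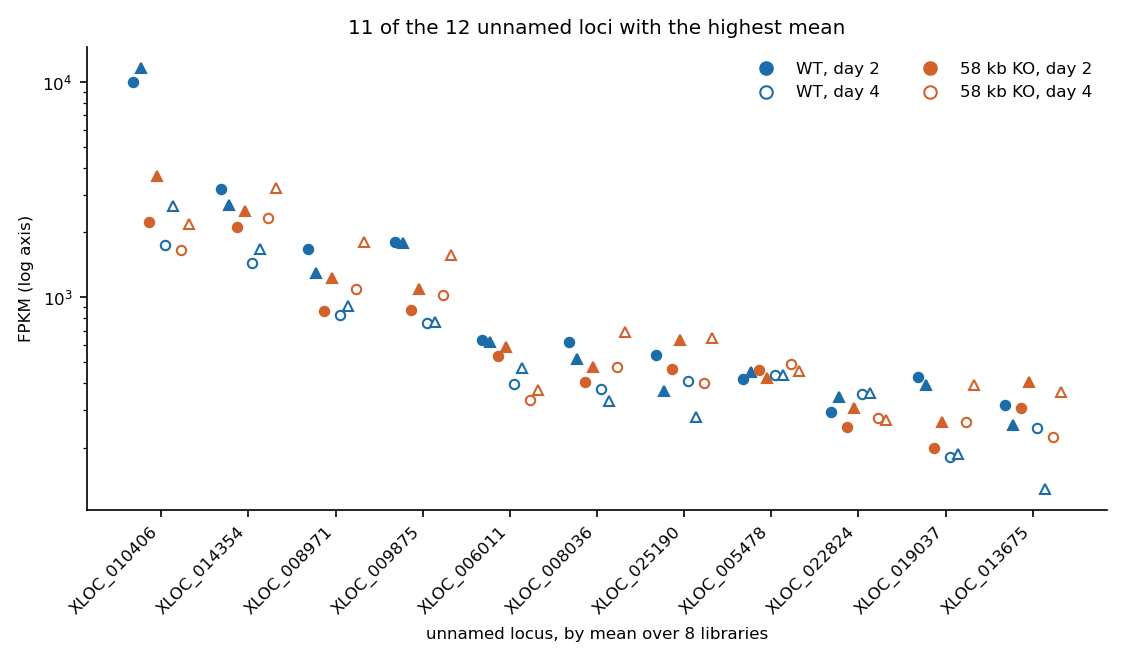
FPKM (log axis) of 11 of the 12 members with the highest mean (x axis) in each of the 8 RA libraries. Blue is WT, orange KO, filled day 2, open day 4, circles WT-1 and KO-i, and triangles WT-2 and KO-j. XLOC_010406 spans 1662 to 11599 FPKM with both WT day 2 libraries on top, while XLOC_005478 stays between 418 and 489.

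Most members lay over a named entry, and most of those on its opposite strand. Of the 880, 517 (58.8%) overlapped a named entry, compared with 27.1% of the other unnamed loci, and 267 lay wholly inside 1. Where a member overlapped more than 1 named entry, the entry with the largest overlap was used. The strand was taken from the authors' other table, which lists 879 members with the same span. By that strand, 372 members (42.3%) overlapped a named entry on the opposite strand, against 15.4% of the other unnamed loci, and 132 (15.0%) on the same strand, against 10.5%. A further 154 (17.5%) lay within 10 kb of a named entry and 209 (23.8%) farther away, against 26.0% and 46.8% of the other unnamed loci. In 13 the strand of 1 entry was unknown. The median distance of those without overlap was 17825 bp, and 67 lay more than 100 kb from any named entry.

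The other table gives 7 columns of ES cells after withdrawal of LIF and of derived lineages: days 0, 2 and 6 as the authors' means over 3, 2 and 3 libraries, and single libraries at day 4, of neural stem cells (NSC), mesendoderm (ME) and neural progenitors (NPC). Those libraries were strand-marked, per the labels' protocols, came partly from other lines, and were normalized separately, so levels are compared within a table only. Of the 879 members listed there, 556 (63.3%) were under 0.5 FPKM in all 7 columns. Of 11222 named entries of the same RA level, 501 (4.46%) were. At least 2 FPKM in 1 or more columns was reached by 185 members (21.0%) and 89.2% of the named entries, and 51 members reached it in all 7. The highest members differed widely here. XLOC_005478 was listed at 0 in all 7 columns and XLOC_008971 stood at 0 to 0.921 FPKM. XLOC_009875 stood at 3754 to 8774 FPKM in the 6 columns other than day 4, where it was listed at 0, and XLOC_014354 at 1827 to 6856 FPKM in all 7.

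By position, the share of low members was highest opposite a gene. Under 0.5 FPKM in all 7 columns were 78.8% of the members on the opposite strand of a gene, 66.0% of those farther than 10 kb, 43.5% of those within 10 kb and 39.4% of those on the same strand. Within the RA table, the ratio of an opposite-strand member to its named entry had a median of +0.11 log2 units, and 200 of the 372 members were at or above the named entry. Within the other table the same ratio had a median of -5.49. For same-strand members the medians were -0.44 and -1.79. Whether strand was used in the authors' counting is not stated. In RA libraries without a strand mark, reads of a gene and of a locus opposite to it cannot be told apart where they overlap. The part of the library type in this gap cannot be told apart from that of the cells and treatments, which also differ between the tables.

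**Figure D2:**
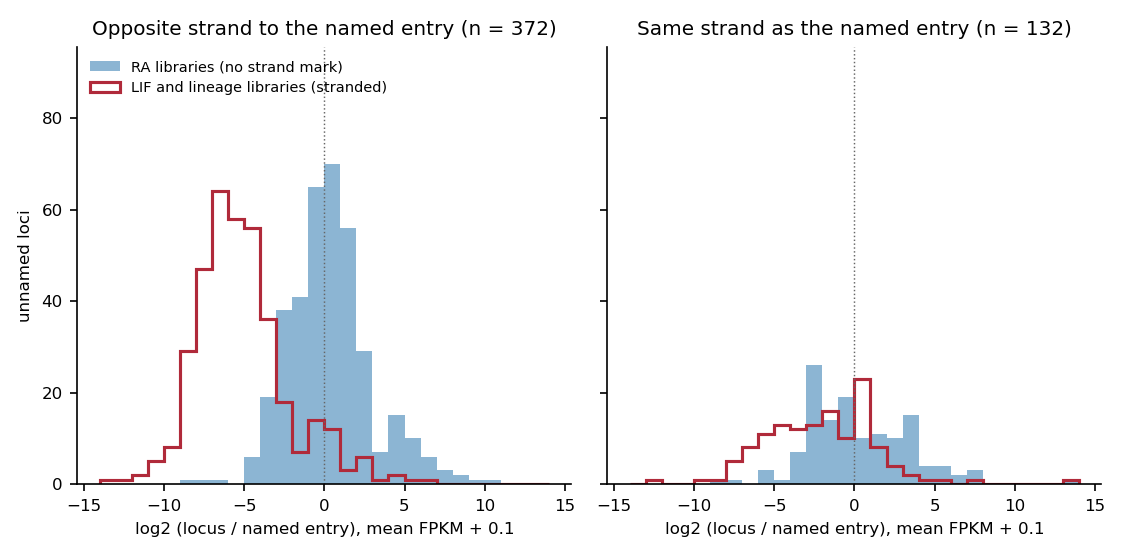
Histograms of the log2 ratio of a member's mean FPKM to that of the named entry it overlaps (0.1 FPKM added to both), for opposite-strand members and same-strand members, in the RA libraries and in the LIF and lineage table. Opposite-strand members centre on +0.11 in the RA libraries and on -5.49 in the other table, a wider gap than that of same-strand members, at -0.44 and -1.79.

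Levels of the members were also like those of the nearest named entry to differing degrees. Over the 8 RA libraries, the Pearson r of log2 values had a median of 0.42 over 819 members, and of 0.22 over 11030 named entries and their own nearest named entry. By position the median was 0.67 for members on the opposite strand of the named entry, 0.30 on the same strand, 0.27 within 10 kb and 0.08 farther away. For named entries overlapped on the opposite strand by another it was 0.33. The points share the 8 libraries and their depth, and the r values are a description without a test.

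From day 2 to day 4 of RA, members changed about as often as all entries, and more of them fell than rose. In WT cells 76 of 879 members tested rose and 137 fell at a limma adjusted p under 0.05 (8.65% and 15.6%), where 14.4% of all 15705 entries rose and 10.9% fell. In KO cells 57 rose and 110 fell, where 10.0% of all entries rose and 7.81% fell. In all, 24.2% of members were called in WT and 19.0% in KO, against 25.3% and 17.8% of all entries. The median change was -0.05 in WT and -0.06 in KO over members, and +0.04 in each over all entries. Of the members that rose, 44 did so in both genotypes (57.9% of the WT and 77.2% of the KO calls), and of those that fell, 78 (56.9% and 70.9%). Over all entries, shared rises were 54.87% of the WT and 78.68% of the KO calls. Shared falls were 53.65% and 74.96%, so members lay near this background. Leaving out 1 library lowered the WT count from 213 to between 103 and 129 for any of the 4 WT libraries, and the KO count from 167 to 98 without KO-i of day 2, to 104 without KO-j of day 2 and to 86 without KO-i of day 4.

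Calls were also counted by position, with no test between classes. In WT, 66 of 209 members farther than 10 kb from a named entry were called (31.6%), 11 rising and 55 falling. Of 371 opposite-strand members tested, 84 were called (22.6%), 44 rising and 40 falling. Over all entries 25.3% were called in WT, 14.4% rising and 10.9% falling. The named entry was tested for 77 of the 84 opposite-strand members. In 52 of the 77 it was called in the same direction, in 1 in the other direction, and in 24 it was not called. In KO cells the named entry was tested for 53 called opposite-strand members and was called in the same direction for 28. The summed level of pluripotency markers fell over the same days. It went from 1948 to 2268 FPKM in WT at day 2 to 398 to 400 at day 4. In KO it went from 1142 to 1929 to 278 to 419. Dppa5a made up much of the day 2 sums, with 926 and 1050 FPKM in the WT libraries. Not every marker fell. Klf4 was higher at day 4 in both genotypes, with 10.0 and 11.8, 6.91 and 9.30, 11.9 and 14.0, and 11.8 and 13.6 FPKM. Lin28a overlapped between days in WT. In bulk libraries, fewer cells of a type and less RNA per cell cannot be told apart.

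The member with the largest rise among the 10 with the smallest p was XLOC_006022 (chromosome 13, 78338513 to 78354754, plus strand, mm9). It started 270 bp from Nr2f1, which encodes the nuclear receptor COUP-TF1 and lies on the minus strand, and it lies inside the span of the noncoding entry A830082K12Rik. Its FPKM were 2.53 and 1.75, 2.51 and 2.70, 47.3 and 66.2, and 26.6 and 37.9. All 4 day 4 libraries were far above all day 2 libraries. The rise was 4.19 log2 units in WT (SE 0.227, adjusted p = 0.000302) and 3.18 in KO (SE 0.227, adjusted p = 0.00161). Nr2f1 rose with it, from 1.96 to 4.68 FPKM over the 4 day 2 libraries to 42.4 and 43.2 in WT and 21.0 and 31.9 in KO at day 4 (+3.49, adjusted p = 0.000608, and +2.44, adjusted p = 0.00393). Across the 8 libraries the pair had r = 0.99. In the other table XLOC_006022 was at 5.43 FPKM in NSC and 11.9 in NPC, and at 0 to 0.0936 in the remaining 5 columns.

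Of the 10 members that rose in WT with the smallest p, 5 lay opposite a gene that rose too. XLOC_015101 (chromosome 3) lay opposite Fat4, a large protocadherin gene, and went from 0 to 0.122 FPKM at day 2 to 6.69 and 7.05 in WT and 3.04 and 3.18 in KO at day 4 (+2.89 and +1.96, adjusted p = 0.000302 and 0.00198). XLOC_004270 (chromosome 11), opposite the membrane protein gene Tmem98, read 2.39 and 3.38, 2.64 and 2.24, 16.4 and 20.1, and 10.8 and 9.20 FPKM. It rose by 2.31 in WT and 1.68 in KO (adjusted p = 0.000472 and 0.00303), and Tmem98 by 2.56 and 1.61. XLOC_010615 (chromosome 17), opposite Pkdcc, a secreted tyrosine kinase gene of skeletal growth, read 31.6 and 22.0, 22.7 and 32.1, 145 and 124, and 110 and 105 FPKM (+2.30 and +1.95, adjusted p = 0.000717 and 0.00288). XLOC_005074 opposite Ptpn21 (+1.27 and +0.98) and XLOC_023183 opposite St3gal2 (+1.47 and +1.27) also rose in both genotypes, as did both named entries. The r with the named entry was 0.98 or 0.99 for each of the 5, and all 5 were at or below 0.365 FPKM in every column of the other table. The RA libraries carry no strand mark, so reads of these 5 loci and of the genes opposite cannot be told apart where they overlap. XLOC_010615 (83548456 to 83620582) reaches beyond Pkdcc (83614623 to 83624409, mean 13.8 FPKM), and the others lie inside their genes. The rest of the 10 did not lie opposite a gene: beside XLOC_006022 these were XLOC_021317 (chromosome 7, 2803 bp from AK076358, +2.78 and +1.58), XLOC_025258 (X chromosome, 89831 bp from Gm5126, +2.23 and +1.90), XLOC_008626 at HOXC, and XLOC_010503 on the strand of the phosphatase gene Ptprs (+1.04 and +0.82).

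Members that fell in both genotypes lay inside genes, opposite genes and far from any. XLOC_015047 (chromosome 3, 30445593 to 30452705), 43290 bp from Actrt3, read 53.1 and 39.0, 28.8 and 29.7, 5.92 and 2.95, and 2.83 and 3.47 FPKM. It fell by 3.15 log2 units in WT and by 2.87 in KO (SE 0.265 each, adjusted p = 0.000608 and 0.00203). XLOC_024300 (chromosome 9, over the glutathione transferase-like entry Gm3776) read 63.0 and 66.6, 43.0 and 61.9, 7.88 and 3.11, and 3.67 and 3.26 FPKM (-3.44 and -3.56, adjusted p = 0.000926 and 0.00209). In both loci no day 4 library reached the lowest day 2 library. XLOC_020430 (chromosome 7), 34061 bp from Zscan4a, a gene of the cleavage stage and of a rare state of ES cells, fell by 1.60 and 1.66 (adjusted p = 0.00141 and 0.00288), and Zscan4a by 2.54 and 2.49. XLOC_024839 on the X chromosome, opposite the nucleosome-binding protein gene Hmgn5, went from 29.1 to 34.9 FPKM at day 2 to 12.7 to 15.0 at day 4. XLOC_002766, which overlaps the edge of Os9 on the same strand of chromosome 10 and lies mostly outside it, went from 4.76 to 11.7 FPKM to 0.216 to 1.15.

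**Figure D3:**
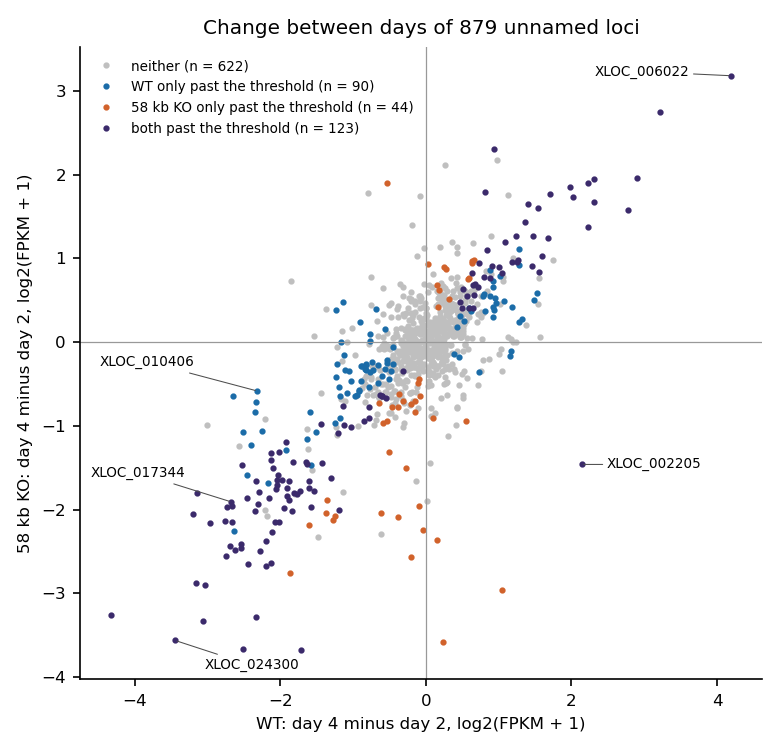
Change from day 2 to day 4 (log2 units of FPKM + 1) of 879 members in WT cells (x axis) and KO cells (y axis), coloured by call at an adjusted p under 0.05. 123 members were called in both genotypes, 90 in WT only and 44 in KO only by that threshold, which does not test the difference, and XLOC_002205 alone was called in both with opposite signs.

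A single member was called in opposite directions in the 2 genotypes. XLOC_002205 (chromosome 10, 3128185 to 3134202), which started 102 bp from Cnksr3, read 0 and 0.0487, 2.84 and 4.70, 5.03 and 2.39, and 0.450 and 0.993 FPKM. It rose in WT (+2.14, SE 0.331, adjusted p = 0.00457) and fell in KO (-1.46, SE 0.331, adjusted p = 0.0257). The difference between genotypes in this change was -3.60 (SE 0.469) with an adjusted p = 0.617, so it did not pass over all entries. Cnksr3 was not called in either genotype (+0.02 and +0.07).

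Divergent pairs, a member and a gene on opposite strands whose starts lay within 1 kb without overlap, numbered 46, with a median gap of 230.5 bp and a range of 8 to 923 bp. This definition was chosen after values had been seen. The median r over the 8 libraries was 0.08, with a range of -0.91 to 0.99. Of 43 pairs with both tested, 7 members and 10 genes were called in WT, where 25.3% of all entries were. In 2 pairs both were called in the same direction, XLOC_006022 with Nr2f1 and XLOC_010367 with Flot1, and in 1 pair in opposite directions. The KO counts were 9 members, 7 genes, 2 pairs in the same direction and 1 in opposite directions, where 17.8% of all entries were called. XLOC_010367 had +1.26 in WT (adjusted p = 0.0113) and +0.96 in KO (adjusted p = 0.0385). The WT call was lost without WT-1 at day 2 (+1.19, adjusted p = 0.0651), WT-2 at day 2 (+1.32, adjusted p = 0.0527) or WT-2 at day 4 (+1.02, adjusted p = 0.0776). The KO call was lost without 5 of the libraries in turn, the lowest value being +0.67 (adjusted p = 0.161) without KO-i at day 4.

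The pair with opposite directions was XLOC_017344 and Dhrs3. XLOC_017344 (chromosome 4, 144444907 to 144482246, minus strand, mm9) started 484 bp from Dhrs3 on the plus strand. Its FPKM were 349 and 413, 178 and 353, 67.0 and 51.4, and 61.3 and 71.3, and every day 4 library was below every day 2 library. Dhrs3 read 99.0 and 103, 91.0 and 107, 171 and 181, and 164 and 170 FPKM, with every day 4 library above every day 2 library. XLOC_017344 fell by 2.67 in WT (SE 0.294, adjusted p = 0.00139) and by 1.91 in KO (SE 0.294, adjusted p = 0.00792), and Dhrs3 rose by 0.80 and 0.75 (SE 0.102, adjusted p = 0.00232 and 0.0062). Their r was -0.91. In the other table XLOC_017344 did not exceed 0.194 FPKM.

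XLOC_011876 (chromosome 19, 37752458 to 37772047, minus strand), which started 251 bp from Cyp26a1 and overlaps Cyp26c1 on the opposite strand, was high at both days. It read 58.7 and 34.6, 83.1 and 52.7, 83.4 and 51.9, and 105 and 80.2 FPKM, and the groups overlapped, although each library of a name was higher at day 4 than at day 2. Its r with Cyp26a1 was 0.93. Cyp26a1 read 462 and 311, 618 and 428, 738 and 480, and 1359 and 995 FPKM. The change over days was +0.54 (adjusted p = 0.281) in WT and +0.47 (adjusted p = 0.364) in KO for the locus, and +0.65 (adjusted p = 0.145) and +1.18 (adjusted p = 0.0332) for Cyp26a1. In both genotypes the library of the first name, WT-1 or KO-i, was the higher one at each day for both the locus and Cyp26a1.

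**Figure D4:**
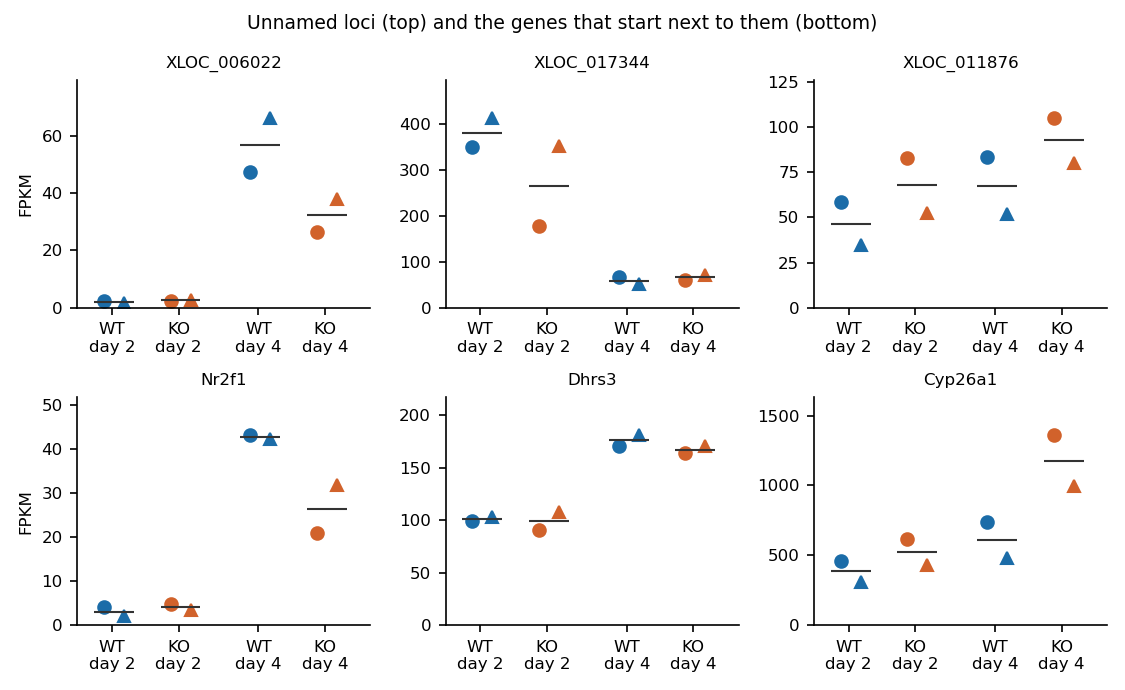
FPKM (linear axis from 0) by group of 3 loci (top) and the gene each starts beside (bottom), with blue for WT, orange for KO, circles for WT-1 and KO-i, triangles for WT-2 and KO-j and lines for group means. XLOC_006022 and Nr2f1 rise together at day 4, and XLOC_017344 falls where Dhrs3 rises. XLOC_011876 overlaps between days in both genotypes, and Cyp26a1 overlaps in neither.

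No member lay within 100 kb of a gene of the HOXA or HOXD clusters or of Haunt. Hox genes encode transcription factors that set position along the body axis, and 4 members lay near the HOXB and HOXC clusters. At HOXC, XLOC_008626 (chromosome 15, 102925680 to 102932445, minus strand) and XLOC_008160 (102932683 to 102937947, plus strand) started back to back, 58397 and 65400 bp beyond Hoxc4. XLOC_008626 read 4.92 and 6.23, 4.96 and 3.66, 16.9 and 24.4, and 17.8 and 16.1 FPKM, and XLOC_008160 read 3.35 and 2.33, 5.04 and 2.39, 10.9 and 11.5, and 8.52 and 11.1 FPKM. Both were higher in all day 4 than in all day 2 libraries. XLOC_008626 rose by 1.71 in WT and 1.77 in KO (SE 0.209, adjusted p = 0.00193 and 0.00381), and XLOC_008160 by 1.68 in WT and 1.25 in KO (SE 0.282, adjusted p = 0.00612 and 0.0252). The KO call of XLOC_008160 was lost with no filter (+1.25, adjusted p = 0.071) and without KO-j at day 2 (+0.83, adjusted p = 0.0881), KO-i at day 4 (+1.42, adjusted p = 0.0604) or KO-j at day 4 (+1.07, adjusted p = 0.0863). Hoxc4 rose less, by 0.91 and 0.75 (SE 0.155, adjusted p = 0.00641 and 0.0193). Neither locus exceeded 0.0703 FPKM in the other table.

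At HOXB, XLOC_003462 (chromosome 11, 96124408 to 96128028, plus strand), 4616 bp from Hoxb9 and over Gm53, read 9.83 and 12.7, 10.7 and 15.6, 8.87 and 9.30, and 12.0 and 10.4 FPKM. XLOC_004383 (96170491 to 96176367, minus strand) lay between Hoxb5 and Hoxb4 and read 0.752 and 3.62, 1.62 and 0.447, 2.07 and 5.41, and 3.89 and 3.00 FPKM. No contrast was called for either locus. Over days the WT differences were -0.27 and +0.64 (adjusted p = 0.345 and 0.416) and the KO differences -0.20 and +1.18 (adjusted p = 0.521 and 0.163). The days did not overlap for XLOC_003462 in WT and for XLOC_004383 in KO, and overlapped in the other genotype of each. Hoxb5 rose in KO (+1.23, adjusted p = 0.0129) and Hoxb4 was not called in either genotype.

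Other members lay at genes of the marker lists. XLOC_012033 (chromosome 2), opposite Cubn, the gene of an endocytic receptor of the extraembryonic endoderm, went from 0.573 to 1.76 FPKM at day 2 to 4.29 to 8.43 at day 4 (+2.02 and +1.73, adjusted p = 0.0045 and 0.0129), with Cubn itself at +2.95 and +2.14. XLOC_011716 on the strand of Malat1, an abundant nuclear noncoding RNA, stayed between 54.0 and 70.0 FPKM. XLOC_021965, a locus within the imprinted growth factor gene Igf2 on chromosome 7, read 4.94 and 0.000652, 8.05 and 0.646, 16.6 and 0.0023, and 9.89 and 0.0115 FPKM. At both days it was high in WT-1 and KO-i and lower, at most 0.646, in the other libraries, while Igf2 stood at 71.6 to 362 FPKM in all 8 libraries.

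The comparison of KO with WT cells asked what loss of the Haunt locus changed at each day. Haunt itself read 128 and 142, 1.13 and 0, 31.8 and 40.6, and 3.08 and 0.447 FPKM, low in every KO library. No member passed at day 2 or at day 4 in limma at an adjusted p under 0.05, against 0.0255% (4) and 0% of all entries. At an unadjusted p under 0.05 there were 69 members at day 2 (39 higher and 30 lower in KO), or 7.85%, where 5.11% of all entries passed. At day 4 there were 129 (72 higher and 57 lower), or 14.7%, where 14.4% of all entries passed. For the difference between days in the KO effect, no member passed after adjustment (0% of all entries), and 80 (9.10%) had an unadjusted p under 0.05, where 5.56% of all entries did. The median difference over members was +0.03 at day 2 and +0.06 at day 4, against +0.04 and +0.02 over all entries.

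The members nearest to a call at day 2 were XLOC_000738, XLOC_002205 and XLOC_010406. XLOC_000738 (chromosome 1, 191703965 to 191704926, plus strand), opposite the lysine methyltransferase gene Smyd2, read 15.9 and 17.0, 29.6 and 30.8, 20.1 and 16.9, and 36.8 and 33.2 FPKM. KO libraries were above WT libraries at both days, with differences of +0.84 at day 2 (SE 0.119, adjusted p = 0.282) and +0.89 at day 4 (SE 0.119, adjusted p = 0.128). Smyd2 differed by +0.58 and +0.52 (adjusted p = 0.88 and 0.261). The 31 named genes of at least 5 FPKM within 5 Mb stood higher in KO too, with day 2 medians of +0.35 for KO-i and +0.55 for KO-j, and day 4 medians of +0.38 and +0.53. The part of this regional shift in the difference of XLOC_000738 was not tested. XLOC_010406 stood at -1.91 at day 2 (SE 0.282, adjusted p = 0.282) and -0.18 at day 4. XLOC_009875 and XLOC_019037 stood at -0.88 and -0.83 at day 2 and +0.74 and +0.80 at day 4, with a difference between days of +1.62 each (adjusted p = 0.71). The 11 named genes of at least 5 FPKM within 5 Mb of XLOC_019037 stood higher in KO-j. Their medians were +0.12 for KO-i and +0.32 for KO-j at day 2, and +0.05 and +0.30 at day 4. The part of this shift in the values of XLOC_019037 was not tested.

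At day 4 XLOC_020532 (chromosome 7), opposite the Mediator subunit gene Med29, had 13.8 and 11.2 FPKM for WT and 32.0 and 47.4 for KO, after 5.73 and 7.65 and 10.2 and 10.9 at day 2. Its day 4 difference was +1.57 (SE 0.213, adjusted p = 0.128), and Med29 differed by -0.12. Zfp36, also on the opposite strand and within the span of XLOC_020532, had a mean of 0.113 FPKM. Without a strand mark, reads of the locus and of these 2 genes cannot be told apart where they overlap. XLOC_018365 (chromosome 5), 20507 bp from Smarcd3, read 5.62 and 6.08, 4.03 and 6.66, 10.8 and 13.6, and 26.9 and 32.7 FPKM, a difference of +1.22 at day 4 (SE 0.219, adjusted p = 0.134). XLOC_002292 (chromosome 10) read 22.0 and 20.0, 23.5 and 24.0, 11.4 and 11.5, and 21.1 and 18.5 FPKM (+0.74 at day 4, SE 0.111, adjusted p = 0.128). In these 3 loci both KO libraries were above both WT libraries at day 4.

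Among the members on the lower side at day 4, XLOC_021504 (chromosome 7) read 3.60 and 3.90, 2.58 and 2.84, 9.23 and 10.2, and 3.13 and 1.91 FPKM (-1.63, SE 0.193, adjusted p = 0.128). XLOC_016466 (chromosome 4), 135 bp from the spermidine synthase gene Srm, had day 4 values of 4.41 and 3.40 FPKM for WT and of 0 and 0.810 for KO (-1.86, adjusted p = 0.128), and passed without KO-j at day 4 (-2.29, adjusted p = 0.0479). XLOC_024167, opposite Stra6, the gene of a retinol uptake receptor, read 3.36 and 3.64, 0 and 0, 4.31 and 19.0, and 0 and 0 FPKM. It was listed at 0 in all 4 KO libraries, where Stra6 stood at 50.2 to 70.8 FPKM. Without WT-1 at day 4 it passed as lower in KO at day 2 (adjusted p = 0.0485) and at day 4 (adjusted p = 0.011).

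**Figure D5:**
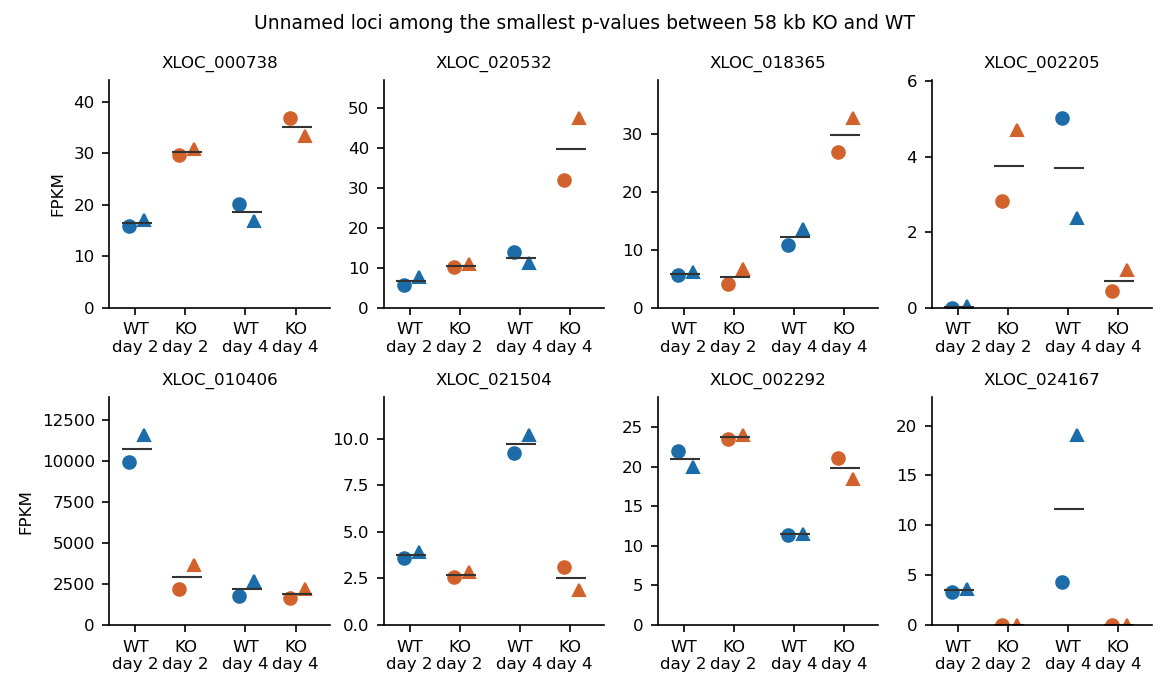
FPKM (linear axis from 0) by group of 8 members with small p-values between KO and WT, with blue for WT, orange for KO, circles for WT-1 and KO-i, triangles for WT-2 and KO-j and lines for group means. XLOC_000738 is above WT in all 4 KO libraries and XLOC_024167 is at 0 in all 4, while none of the loci passed the adjusted threshold.

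Some of these loci rest on few reads. The low values of a library form steps, from which depths of 9.08 to 16.5 M reads were estimated, and 1 read in 1000 bp was worth 0.0772 to 0.14 FPKM. In 47 of 879 members the FPKM of every library was a whole multiple of 1 step, at most 10 and to within 0.1 of a step, a check chosen after values had been seen. In steps, XLOC_024167 held 1, 1, 0, 0, 1, 7, 0 and 0 and XLOC_021504 held 2, 2, 1, 2, 4, 7, 2 and 1, in the order of the values above. XLOC_008563, just inside the threshold, held 2, 1, 1, 1, 1, 0, 0 and 3. Differences of a few reads are not detectable at this depth.

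Summed levels of marker lists also differed between genotypes, which is given here as measured, and their part in the differences of members was not tested. At day 4 the 19 extraembryonic endoderm markers summed to 2432 and 2564 FPKM in WT and 1399 and 1525 in KO, after 348 to 452 in the 4 libraries of day 2. Sparc and Col4a1 made up much of the day 4 sums, and Amn, at most 1.32 FPKM in any library, was then higher in KO. The 9 trophoblast markers summed to 300.1 to 457 FPKM in WT and 109 to 178 in KO at day 4. Krt8 (96.6 and 154 FPKM in WT, 28.5 and 55.8 in KO), Krt18 and Krt19 made up most of that sum. Tfap2c was higher in KO (0.954 and 0.510 FPKM in WT, 1.06 and 1.75 in KO). Elf5 and Hand1 stayed under 1 FPKM in every library. The 15 genes of the RA response summed to 2057 to 2768 FPKM in WT and 3683 to 4939 in KO at day 4. Stra8 (834 and 395 FPKM in WT, 2315 and 1430 in KO) and Cyp26a1 made up much of that sum, and Stra6 (106 and 154 FPKM in WT, 65.4 and 70.8 in KO), Crabp1 and Rarb were lower in KO. None of these 3 lists had a marker at 0 in all libraries.

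A few members were high in 1 lineage column of the other table, each a single library without a replicate. XLOC_025407 (X chromosome, opposite Mid1) stood at 36.6 FPKM in ME and 0.986 to 3.95 in the other 6 columns. XLOC_018365 stood at 14.0 FPKM in ME, 2.46 in NSC and 0 in the remaining 5. XLOC_004583 (chromosome 11, 1687 bp from the cell adhesion gene Sdk2) stood at 7.28 FPKM in NPC and at most 0.787 elsewhere. In the RA libraries it stood at 2.62 to 3.01 FPKM at day 2, and at 8.54 and 11.6 in WT and 3.59 and 6.79 in KO at day 4 (WT +1.53, SE 0.26, adjusted p = 0.00633, and KO +0.58, adjusted p = 0.159). The neighbours XLOC_015508 and XLOC_015509 (chromosome 3) stood at 29.6 and 40.6 FPKM in NSC, at most 3.45 in every other column, and at 1.08 to 8.79 FPKM in the RA libraries.

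RefSeq holds genes between the named genes that flank some of the members without overlap. Some of these intervals are long, such as 3842838 bp for XLOC_005068. No position was carried between builds, so whether a member lies at such a gene was not tested. For 349 of the members without overlap the flanking named genes are in RefSeq in the same order. The interval held no RefSeq gene for 65 of these members, 1 for 58 and 2 or more for 226. It held at least 1 lncRNA for 193 members and at least 1 pseudogene for 212. Members that share an interval were each counted. Between Hoxc4 and D930007P13Rik, where XLOC_008160 and XLOC_008626 lie, the only RefSeq gene was the lncRNA Gm28876. Between Hoxb5 and Hoxb4, around XLOC_004383, it was Mir10a. The interval of XLOC_015047 held none.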

How the data were processed

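The deposited value of each entry and library is taken as FPKM from its size and steps; the file headers give no unit. Bowtie 1.0.0, TopHat2 2.0.11 and build mm9 appear in the submitters' processing notes, with no role, and the assembler was not given in the sources used here. Members and lists were chosen with earlier results of these data known. From the deposited FPKM, log2(FPKM + 1) was computed for the 15705 entries that reached 1 FPKM in 2 or more of the 8 RA libraries, a filter that 879 of 880 members passed (XLOC_005051, at 0 in 7 libraries, did not). All named and unnamed entries were fitted together with limma 3.58.1 in R 4.3.3 (4 groups, intensity trend), with Benjamini-Hochberg adjustment over all entries and a threshold of 0.05. Differences are on the log2(FPKM + 1) scale and understate changes of low loci. The fit was tested on simulated data. Members were named by rank of mean or p, by place near Haunt, Hox or list genes, by span, and at the threshold. Other members named were chosen after their values were seen. Positions are mm9, with starts given from 1. Strand is that of the authors' other table. RefSeq tables (GRCm38.p6) gave names, gene order and the sequences printed. Of the series' 54 samples, those not named here were not analysed here. A pair of members that the rule names is not reported here.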

Additional observations from a re-analysis of the deposited data

How the results depend on the processing

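Each library was left out in turn, and pseudocounts of 0.1 and 2, no filter, another filter, other scalings, no trend, the libraries of 1 day alone and a replicate block on the library name were tried. For KO against WT, members called ranged from 0 to 1 at day 2 and from 0 to 3 at day 4 over the fits without 1 library, with 1 at day 4 under a pseudocount of 0.1, and the difference between days gave 0 in each. For day 4 against day 2, the counts without 1 library ran from 103 to 243 in WT and from 86 to 142 in KO, and the members shared by both genotypes from 64 to 106. With no filter the KO count was 74 and the shared count 63. The fits without the filter tested more entries, and those without a library had fewer samples. The replicate block gave 272 in WT, 219 in KO and 162 shared. The names are not stated to pair libraries, and deviations of the same name correlated at 0.085 in WT and 0.26 in KO, with 2 pairs in each. With the block, XLOC_011876 passed over days in WT (+0.54, adjusted p = 0.0119) and in KO (+0.47, adjusted p = 0.0236), as did, in KO, XLOC_004383 (+1.18, adjusted p = 0.0176), XLOC_010406 (-0.58, adjusted p = 0.0334) and XLOC_009875 (+0.39, adjusted p = 0.0429). Overlap with a named entry was 53.0% when only named entries of at least 1 FPKM counted and 62.1% among unnamed loci of at least 5 FPKM. The share within 5 kb was 13.0% and within 50 kb 28.6%. Of the values of named members under these settings, 1440 kept direction and side of the threshold, 11 newly passed, 28 no longer passed and 2 changed sign. Neither of these was called. Without 1 library, XLOC_004383 in WT over days ran from -0.058 (without WT-1 at day 2) to +1.34, and XLOC_003462 in KO over days from -0.45 to +0.056 (without KO-j at day 2). The cause was not tested.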
